A study of Mus musculus with 6 samples.

Results

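The 5-hydroxymethylcytosine (5hmC) peaks of mouse fibroblasts induced for 3 days towards pluripotency were compared with those of uninduced fibroblasts. All peaks of both deposited lists were used, 116087 at day 3 and 42301 in fibroblasts. These 158388 peaks belong to the 663518 peaks that the 6 lists of the series hold. A peak is a stretch of the genome in which the authors' peak caller found captured DNA enriched. Peaks of both lists were counted as overlapping from 1 bp, and the comparison was repeated with lists cut to the same number of top-scoring peaks.

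The day-3 cells were passage 4 fibroblasts kept in embryonic stem cell medium with doxycycline for 3 days, and the uninduced cells were fibroblasts at passage 4 of the same origin. Both came from mice made with iPS cells carrying Tet1, Sox2, Klf4 and c-Myc (TSKM), on the OG2-GFP/Rosa26-M2rtTA strain, so the uninduced fibroblasts carry the factors too. M2rtTA is a transactivator that switches on tetracycline-controlled genes when doxycycline is present, and OG2-GFP is a reporter driven by the Oct4 promoter. Oct4 itself is not among the induced factors. Drug and medium changed together, so their effects cannot be told apart. Each group was 1 library made with the same polyclonal 5hmC antibody (Active Motif), and how many mice stand behind it is not stated in the sources at hand. iPS cells of this system at passage 10 to 15, and the 5-methylcytosine (5mC) libraries of the same stages, served as further readouts.

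5hmC is made from 5mC by the TET dioxygenases, of which Tet1 is one. It is an intermediate on the way to unmodified cytosine, and it is also a lasting mark of enhancers and gene bodies in some cell types. Embryonic stem cells are rich in 5hmC and express Tet1, whereas cultured fibroblasts hold little of it. In reprogramming, TET enzymes take part in the demethylation of pluripotency genes.

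With 1 library per stage there is no replicate error, and no test between the stages was possible. Intervals beside shares are 95% Wilson intervals, which cover counting error alone. Read depth is unknown, so a longer list can come from more 5hmC or from more reads. A region with a peak in 1 list alone is called day-3-only or fibroblast-only. These words describe the lists, since a mark just below the caller's threshold is not listed. In a bulk precipitation, more cells carrying the mark and more mark per cell cannot be told apart.

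Most 5hmC peaks of the day-3 cells lay where the fibroblast list had none, and most fibroblast peaks had no counterpart at day 3. Of the day-3 peaks, 100738 (86.8%, interval 86.6 to 87.0) were day-3-only and 15349 overlapped a fibroblast peak. Of the fibroblast peaks, 27112 (64.1%, interval 63.6 to 64.5) were fibroblast-only and 15189 overlapped a day-3 peak. The day-3 list was thus not the fibroblast list with peaks added. Counted in base pairs, 116 Mb were covered at day 3 alone, 24.6 Mb in fibroblasts alone and 11.4 Mb in both. The base pairs covered in both made up 8.93% of the day-3 length and 31.6% of the fibroblast length.

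Where the lists met, they met closely. In 14312 cases a single day-3 peak faced a single fibroblast peak, and the median distance between both centres was 120 bp. In 71.7% of these pairs the centres lay within 250 bp of each other. The day-3 peak was the wider one in 58.3% of the pairs, with a median width of 939 bp at day 3 and 868 bp in fibroblasts. Few peaks were near the limit of the overlap rule. At day 3, 387 peaks overlapped a fibroblast peak by 1 to 100 bp and 490 missed one by less than 100 bp. In fibroblasts these numbers were 253 and 298.

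Peaks without a counterpart lay at widely varying distances from the other list. Day-3-only peaks lay a median of 14595 bp from the nearest fibroblast peak, with 5.64% of them within 1 kb and 39.1% within 10 kb of one. Fibroblast-only peaks lay a median of 9380 bp from the nearest day-3 peak, with 10.9% within 1 kb and 51.6% within 10 kb. Within the lists, neighbouring peaks were a median of 4722 bp apart at day 3 and 23846 bp in fibroblasts. More than 100 kb separated 4.33% of the day-3-only peaks and 9.46% of the fibroblast-only peaks from the other list.

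The best-scoring peaks of both stages rarely overlapped. The 1000 best reached down to a score of 1862.16 at day 3 and of 545.63 in fibroblasts. Among the 1000 best-scoring peaks of each list, 4.20% of the day-3 peaks (interval 3.12 to 5.63) overlapped 1 of the fibroblast 1000, and 4.40% of the fibroblast peaks (3.29 to 5.86) overlapped 1 of the day-3 1000. The shares were 6.54% and 6.67% among the 10000 best. With 42301 peaks from each, the whole fibroblast list, they came to 14.8% and 15.2%. For 5mC between the same stages, 71.7% of the 1000 best day-3 peaks and 72.0% of the 1000 best fibroblast peaks overlapped. The difference between both marks was not tested, since each has 1 library per stage.

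**Figure D1:**
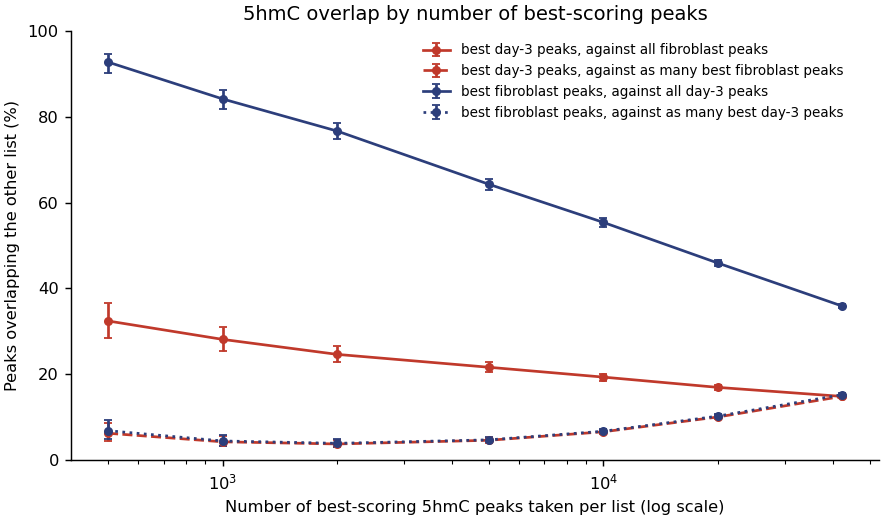
Share of best-scoring 5hmC peaks that overlap the other list (vertical axis, percent) against the number of best peaks taken per list (horizontal axis, log scale), with 95% Wilson intervals. Against the whole other list, 28.1% of the 1000 best day-3 peaks and 84.2% of the 1000 best fibroblast peaks overlapped, whereas against the 1000 best peaks of the other list the shares were 4.20% and 4.40%.

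Against the whole other list, the picture was unequal. Of the 500 best day-3 peaks, 32.4% (28.4 to 36.6) lay on any fibroblast peak, and of the 500 best fibroblast peaks, 92.8% (90.2 to 94.8) lay on any day-3 peak. The longer day-3 list by itself leads to more hits. The partners were mostly not at the top of their own list. For the 842 of the 1000 best fibroblast peaks that had a day-3 partner, the median partner was outscored by 25.4% of the day-3 list, and 174 partners stood in its top 10%. For the 281 of the 1000 best day-3 peaks with a fibroblast partner, the median partner was outscored by 31.7% of the fibroblast list, and 68 stood in its top 10%.

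Overlap changed less with score among day-3 peaks than among fibroblast peaks. Each list was split into 10 groups of equal size by score. In the lowest-scoring group of the day-3 list 11.8% of the peaks had a fibroblast counterpart, and in the highest-scoring group 18.8% did. Between these ends the share was nearly flat, from 12.1% to 12.9% in 7 groups and 14.3% in the one next to the top. In the fibroblast list the share with a day-3 counterpart was 24.6% in the lowest group and 66.9% in the highest. Day-3-only peaks were therefore found among low-scoring and high-scoring day-3 peaks alike. The median score was 115.42 for day-3-only peaks and 127.24 for day-3 peaks with a counterpart. It was 78.1 for fibroblast-only peaks and 109.56 for fibroblast peaks with a counterpart.

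**Figure D2:**
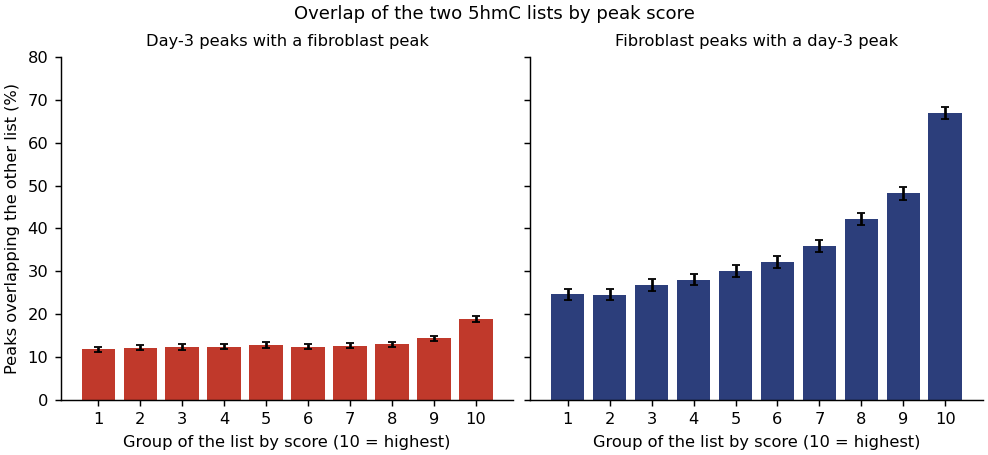
Percent of peaks that overlap the other 5hmC list (vertical axis) in each of 10 equal groups of a list ranked by the authors' score (horizontal axis, 10 the highest), with 95% Wilson intervals, day 3 left and fibroblasts right. The day-3 bars run from 11.8% to 18.8% and the fibroblast bars from 24.5% to 66.9%.

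Width followed the same order in fibroblasts. Over 4 equal groups by width, day-3 peaks had a fibroblast counterpart in 13.5% of cases in the narrowest group and in 16.0% in the widest. Both groups between them had 11.7%, so there was no steady rise with width at day 3. Fibroblast peaks had a day-3 counterpart in 24.3% of cases in the narrowest group and in 51.6% in the widest, which began at 945 bp. Peaks of at least 3 kb numbered 1965 at day 3 (1.69% of the list) and 53 in fibroblasts (0.125%). Of the broad day-3 peaks, 28.1% (26.2 to 30.2) overlapped fibroblast 5hmC, and 86.2% overlapped iPS 5hmC. Broad day-3 peaks lay on day-3 5mC in 82.0% of cases and on fibroblast 5mC in 65.3%. A wider peak meets the 1 bp rule more easily, and the shares by width were not corrected for this. Of the 53 broad fibroblast peaks, 47 overlapped day-3 5hmC.

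Named sites make the contrast concrete. Positions are on the mouse build mm9, counted from 1. The score in these sentences is the authors' own, and no gene annotation of mm9 was used here. The best-scoring day-3-only peak was on chromosome 3 from 126325534 to 126327856, with a score of 3230.05 and the nearest fibroblast peak 21.8 kb away. Next came a peak on chromosome 13 from 100178628 to 100183101, with a score of 3217.75, and one on chromosome 18 from 75538638 to 75544906, with 3216.07. Both had fibroblast and day-3 5mC peaks beneath them. Another, on chromosome 9 from 99696136 to 99701276, scored 3207.82 and had a day-3 but no fibroblast 5mC peak. The last of the 5, on chromosome 1 from 154454584 to 154460759, scored 3202.11 and was overlapped by 4 iPS 5hmC peaks. All 5 also overlapped an iPS 5hmC peak, so none of these sites was particular to day 3.

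The 5 best-scoring day-3 peaks with a fibroblast counterpart were 3649 to 6690 bp wide, and the fibroblast peaks they met were 713 to 1247 bp wide. The first lay on chromosome 1 from 54922107 to 54926440, where 989 of its 4334 bp were covered in fibroblasts. On chromosome 19 from 21178359 to 21182007, fibroblast peaks covered 949 of 3649 bp. On chromosome 8 from 63818673 to 63822951 they covered 1012 of 4279 bp. In all 3 the day-3 peak thus extended well beyond the fibroblast peak. These sites were chosen by their day-3 score and do not stand for all pairs. Over the 14312 one-to-one pairs the day-3 peak was wider in 58.3%, with median widths of 939 bp and 868 bp. The other two, on chromosome 4 from 139132202 to 139136771 and on chromosome 15 from 61870498 to 61877187, had 713 and 751 bp covered in fibroblasts. The site on chromosome 15 was the one among these 5 with no overlapping peak in either 5mC list or in iPS 5hmC.

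The best-scoring fibroblast-only peak was on chromosome 15 from 19638098 to 19643448, with a score of 1695.21. The nearest day-3 peak was 316 kb away, and neither fibroblasts nor day-3 cells had a 5mC peak there. The second, on chromosome 18 from 81944228 to 81946346, scored 1563.15 and had 5mC at both stages. The third, on chromosome 14 from 9025383 to 9026627, scored 1280.37 and also had 5mC at both stages. The fourth, on chromosome 16 from 69199598 to 69201102, scored 1273.67, lay 877 kb from the nearest day-3 peak and had 5mC in fibroblasts but not at day 3. The last of the 5, on chromosome 4 from 3007044 to 3011855, scored 1199.15 and lay 4.61 kb from a day-3 peak. Of these 5 sites, 4 overlapped an iPS 5hmC peak, and the site on chromosome 4 did not. Among the 100 best-scoring fibroblast-only peaks, 99 overlapped an iPS 5hmC peak. This was not particular to that class. Of the 100 best day-3-only peaks 94 did so. With a counterpart, 96 of the 100 best day-3 peaks and 98 of the 100 best fibroblast peaks did so. The iPS 5hmC list was also the longest of the series, with 174079 peaks covering 187 Mb.

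5hmC peaks of day-3 cells stood in runs more often than those of fibroblasts. Runs of at least 5 peaks with gaps of at most 5 kb held 30.3% of the day-3 peaks and 1.69% of the fibroblast peaks. The 42301 best-scoring day-3 peaks, as many as the fibroblast list held, had 12.8% in such runs. The same number of best 5mC peaks had 14.3% in runs at day 3 and 12.8% in fibroblasts. At equal numbers the fibroblast 5hmC list thus had the lowest share of the 4 lists, each being 1 library. That list was taken whole, whereas the others were the best-scoring parts of longer lists. The numbers were therefore equal but the lowest scores were not, and the part of this in the result was not tested.

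The longest run was on chromosome 5 from 125486748 to 125674757. It held 66 day-3 peaks, of which 55 were day-3-only, and 15 fibroblast peaks. Over the whole day-3 list 86.8% of the peaks were day-3-only, so this count did not set the run apart. 5hmC covered 125 kb of the 188 kb of the run at day 3 and 14.9 kb in fibroblasts. 5mC covered 82.4 kb at day 3 and 70.1 kb in fibroblasts, and iPS 5hmC covered 101 kb. A run on chromosome 11 from 76067045 to 76217921 was less covered by 5mC. It held 52 day-3 peaks over 102 kb and 7 fibroblast peaks over 6.28 kb, with 33.3 kb of 5mC at day 3 and 17.7 kb in fibroblasts. Both runs were therefore widely covered by 5hmC at day 3 while their 5mC coverage differed.

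In windows of 100 kb, 19754 windows had 5hmC in at least 1 of both lists. Day 3 had the greater covered length in 14447 of them (73.1%) and fibroblasts in 5305 (26.9%). When the day-3 list was cut to its top 42301 peaks, as many as the fibroblast list held, day 3 had more in 9145 windows. Fibroblasts had more in 8880, so that the excess in number of windows was nearly gone. The day-3 peaks so chosen covered 1.81 times the length of the fibroblast list. They were the best-scoring part of their list, down to a score of 162.8, whereas the fibroblast list was whole, down to 50.01. In the whole lists the mean peak width was 1096 bp at day 3 and 849 bp in fibroblasts. How far the choice by score made up the 1.81 was not tested. With the whole lists, 5hmC was present in both in 13219 windows, at day 3 alone in 3693 and in fibroblasts alone in 2842. With 42301 peaks from each list, these counts were 9816, 1968 and 6245. Windows with fibroblast peaks alone then outnumbered those with day-3 peaks alone. In the whole lists, windows with at least 20 kb of 5hmC numbered 1295 at day 3 and 5 in fibroblasts. They numbered 393 for the 42301 best-scoring day-3 peaks. Across the 22088 windows with a peak in any of the 6 lists, Spearman's rho of covered length was 0.46 between day-3 and fibroblast 5hmC, and 0.94 between day-3 and fibroblast 5mC. For the top 42301 peaks per list these were 0.40 and 0.91. These are descriptions, since windows share base composition and CpG density across libraries. Day-3 5hmC had a rho of 0.75 with day-3 5mC, and fibroblast 5hmC had 0.59 with fibroblast 5mC.

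**Figure D3:**
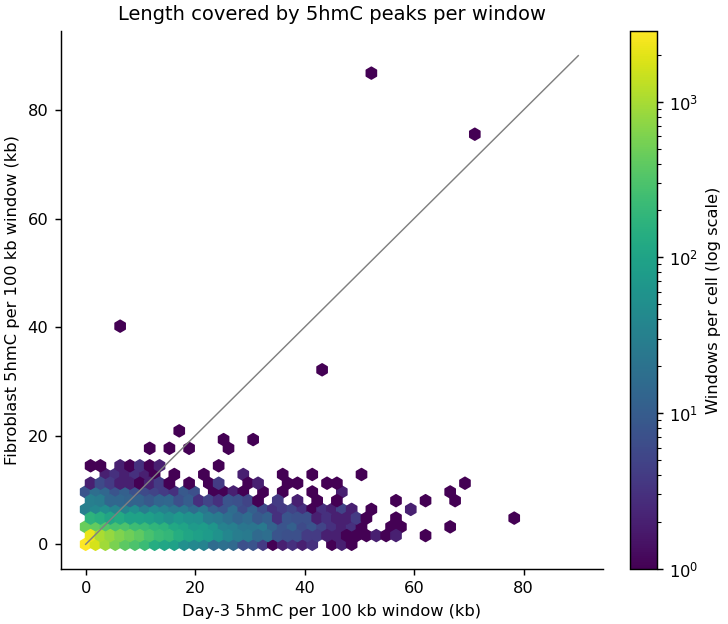
Length covered by 5hmC peaks in each of 19754 windows of 100 kb, at day 3 (horizontal axis, kb) and in fibroblasts (vertical axis, kb), with colour for the number of windows (log scale) and a grey line of equal length. Day 3 had more in 73.1% of the windows, and 5 windows reached 20 kb in fibroblasts against 1295 at day 3.

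The 5 windows with the greatest gain of covered length all had over 60 kb of 5hmC at day 3 and less than 11 kb in fibroblasts. The first, on chromosome 11 from 76100001 to 76200000, had 78.3 kb at day 3 and 4.53 kb in fibroblasts. The second, on chromosome 3 from 126300001 to 126400000, had 66.5 kb at day 3 and 3.20 kb in fibroblasts, and contained the best-scoring day-3-only peak. In iPS cells this window had 13.6 kb, so much of its day-3 length was not listed there. The third, on chromosome 1 from 154400001 to 154500000, had 62.7 kb at day 3 and 1.44 kb in fibroblasts. The window on chromosome 11 from 117100001 to 117200000 had 67.6 kb at day 3 and 8.39 kb in fibroblasts. That on chromosome 5 from 125500001 to 125600000 had 68.7 kb at day 3 and 10.9 kb in fibroblasts. In all 5, 5mC covered more at day 3 than in fibroblasts, with 23.7 kb at day 3 and 13.1 kb in fibroblasts in the first. This was also so in 91.8% of all windows in which 5mC differed, and the day-3 5mC list as a whole covered 170 Mb against 111 Mb in fibroblasts.

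Losses of covered length were smaller. On chromosome 3 from 25400001 to 25500000, 5hmC covered 7.08 kb at day 3 and 40.7 kb in fibroblasts, and 5mC covered 16.8 kb at day 3 and 39.5 kb in fibroblasts. On chromosome 1 from 90100001 to 90200000, 5hmC covered 53.0 kb at day 3 and 86.2 kb in fibroblasts, and 5mC covered 78.8 kb at day 3 and 88.8 kb in fibroblasts. Both marks were thus shorter at day 3 in these windows. The window on chromosome 1 was widely covered in all 6 lists, with 50.4 kb of 5hmC and 82.3 kb of 5mC in iPS cells. No control library is stated, so enrichment over a control was not tested there. On chromosome 5 from 113800001 to 113900000, 5hmC covered 0.999 kb at day 3 and 14.5 kb in fibroblasts, made up of 2 and 17 peaks. On chromosome 2 from 179200001 to 179300000 it covered 1.98 kb at day 3 and 14.0 kb in fibroblasts. In iPS cells these windows had 31.9 kb and 31.2 kb, more than at either earlier stage. On chromosome 14 from 27500001 to 27600000 day-3 cells had no 5hmC peak, while fibroblasts had 11.5 kb and iPS cells 10.8 kb.

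Chromosome Y differed from the autosomes, and chromosome X did so in part. On the 19 autosomes the day-3 list was 2.21 times (chromosome 5) to 3.69 times (chromosome 19) as long as the fibroblast list. Day-3-only peaks made up 83.5% (chromosome 7) to 89.2% (chromosome 19) of the day-3 peaks. Fibroblast-only peaks made up 58.8% (chromosome 17) to 68.1% (chromosome 16) of the fibroblast peaks. On chromosome X 92.0% of the 1004 day-3 peaks (90.2 to 93.6) were day-3-only, above each autosome. Of its 297 fibroblast peaks 73.1% (67.7 to 77.8) were fibroblast-only, an interval that meets that of chromosome 16 (65.6 to 70.4). These intervals cover counting error alone, and X was not tested against the autosomes. The day-3 list was 3.38 times as long as the fibroblast list on X, within the range of the autosomes. Chromosome Y went the other way in number of peaks, with 45 at day 3 and 70 in fibroblasts, and all 45 day-3 peaks overlapped a fibroblast peak. Of the 70 fibroblast peaks on Y, 52.9% (41.3 to 64.1) were fibroblast-only. Mitochondrial DNA had 2 peaks at day 3 and 3 in fibroblasts, which all overlapped.

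5mC, which the comparison did not use, lay more often under 5hmC peaks listed at both stages than under those listed at 1. Day-3 5mC lay under 36.9% of the day-3-only peaks (36.6 to 37.2), 63.4% of the day-3 peaks with a counterpart (62.6 to 64.2) and 30.2% of the fibroblast-only peaks (29.6 to 30.7). Fibroblast 5mC lay under 25.0%, 43.6% and 18.98% of the same classes. 5mC was listed at neither stage for 60.9% of the day-3-only peaks, for 34.1% of the day-3 peaks with a counterpart and for 66.9% of the fibroblast-only peaks. Counted as peaks, most day-3-only and most fibroblast-only sites were thus outside the listed 5mC peaks of both stages. This changed with score. In the highest-scoring of 5 equal groups of each list, day-3 5mC lay under 52.5% of the day-3-only and 38.8% of the fibroblast-only peaks. Among the 100 best of each class it lay under 88 and 42. Where fibroblast 5mC lay under a 5hmC peak, no day-3 5mC peak was listed for 8.70% of the day-3-only peaks (8.36 to 9.05), 5.65% of the day-3 peaks with a counterpart (5.13 to 6.23) and 15.3% of the fibroblast-only peaks (14.3 to 16.3). Over all fibroblast 5mC peaks this share was 10.3%, with a day-3 5mC list 1.59 times as long as that of fibroblasts.

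iPS 5hmC lay under 82.1% of the day-3 peaks with a fibroblast counterpart (81.5 to 82.7), 43.2% of the day-3-only peaks (42.9 to 43.5) and 53.6% of the fibroblast-only peaks (53.0 to 54.2). Fibroblast 5mC split each class. With fibroblast 5mC, iPS 5hmC lay under 78.3% of the day-3-only peaks (77.7 to 78.8), 92.0% of the day-3 peaks with a counterpart and 73.9% of the fibroblast-only peaks (72.7 to 75.1). Off fibroblast 5mC, these classes had 31.4%, 74.5% and 48.9%. Away from the 5mC of both stages, iPS 5hmC was found for 26.7% of the day-3-only peaks (26.3 to 27.0), 69.1% of the day-3 peaks with a counterpart (67.9 to 70.4) and 45.4% of the fibroblast-only peaks (44.7 to 46.1). Day-3-only peaks thus had the lowest share off 5mC, whereas on fibroblast 5mC fibroblast-only peaks had the lowest. Day-3 peaks with a counterpart had the highest share in each of these splits.

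**Figure D4:**
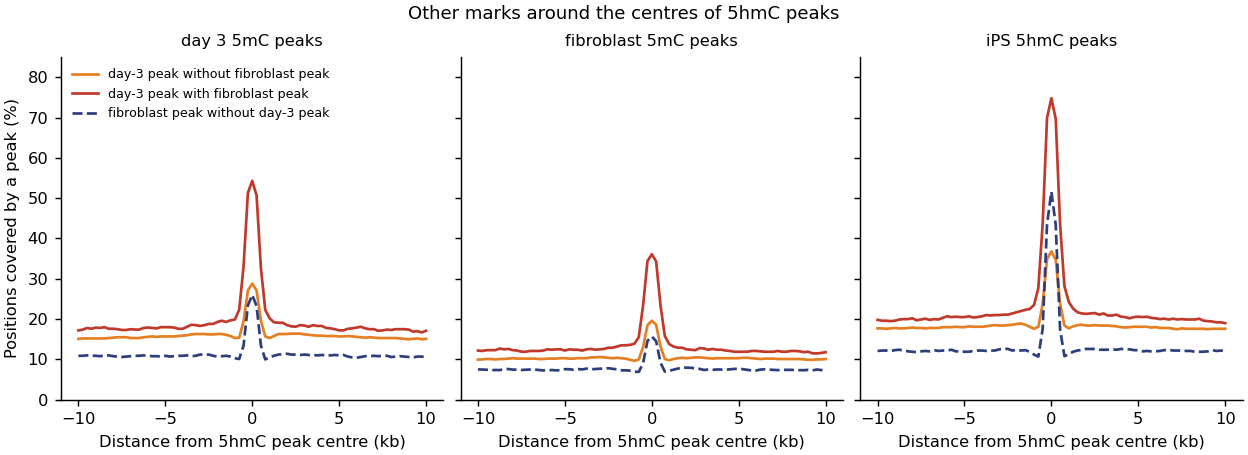
Percent of positions covered by day-3 5mC, fibroblast 5mC and iPS 5hmC peaks (vertical axis) at distances of up to 10 kb from the centres of 5hmC peaks (horizontal axis, kb), for day-3-only peaks, day-3 peaks with a fibroblast counterpart and fibroblast-only peaks. iPS 5hmC covered 36.8%, 74.8% and 51.6% of these centres.

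The single base at the centre of a peak does not depend on peak width, and it was also covered most often in day-3 peaks with a counterpart. Day-3 5mC covered 28.8% of the centres of day-3-only peaks, 54.3% of those with a counterpart and 26.0% of the fibroblast-only centres. At 5 kb beside the centre it covered 15.7%, 17.2% and 11.0%. Day-3 peaks with a counterpart thus stood out at the centre. For day-3 5mC, day-3-only and fibroblast-only peaks were closer to each other at the centre than 5 kb away. For fibroblast 5mC they were further apart at the centre (19.6% and 15.7%) than 5 kb away (10.3% and 7.71%). iPS 5hmC covered 36.8%, 74.8% and 51.6% of the centres and 18.1%, 20.6% and 12.3% of the positions 5 kb away. Fibroblast-only peaks thus had more iPS 5hmC than day-3-only peaks at the centre and less 5 kb away.

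Peaks with a counterpart had higher scores, so the classes were also compared within 5 equal groups of each list by score. Fibroblast 5mC lay under fewer day-3-only than counterpart peaks in each group, with 19.04% and 31.6% in the lowest and 38.6% and 59.0% in the highest. For iPS 5hmC these shares were 33.8% and 77.1% in the lowest group and 60.8% and 88.5% in the highest. Among fibroblast peaks, iPS 5hmC lay under 34.1% of the fibroblast-only peaks and 66.7% of those with a day-3 counterpart in the lowest group. In the highest group the shares were 89.9% and 95.4%. High-scoring fibroblast peaks were thus mostly listed again in iPS cells whether or not day 3 listed them.

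**Figure D5:**
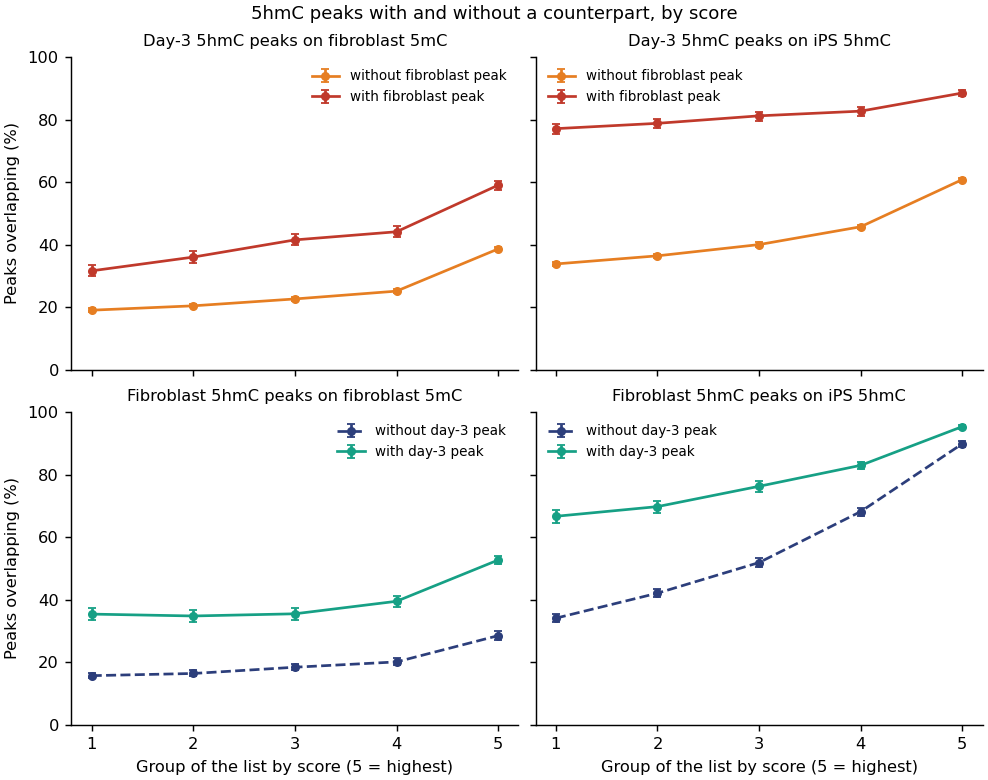
Percent of 5hmC peaks that overlap fibroblast 5mC or iPS 5hmC (vertical axis) in each of 5 equal groups of the list by score (horizontal axis, 5 the highest), for day-3 peaks (top) and fibroblast peaks (bottom), without and with a counterpart, with 95% Wilson intervals. Peaks with a counterpart lie higher in each group, and for fibroblast peaks on iPS 5hmC the gap is 89.9% against 95.4% in the highest group.

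Distance to the other list went along with both readouts. Day-3-only peaks within 1 kb of a fibroblast peak had iPS 5hmC in 52.0% of cases (50.7 to 53.3), and those at least 100 kb away in 17.6% (16.5 to 18.7). Fibroblast 5mC lay under 30.5% and 9.95% of them. Their median scores were 120.87 and 96.03, so score moved with the distance, and its part in the result was not tested. Fibroblast-only peaks within 1 kb of a day-3 peak had iPS 5hmC in 59.3% of cases, and those at least 100 kb away in 39.4% (37.5 to 41.3), with median scores of 77.57 and 72.32.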

How the data were processed

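5hmC and 5mC were captured with antibodies from adapter-ligated mouse DNA, 500 ng per reaction, amplified for 14 to 16 cycles and sized to 300 to 500 bp, per the labels' protocols. Tools named by the submitters are MACS 1.4.1, Bowtie 0.12.7 and CASAVA 1.8, with mm9 as the build, per the submitters' processing notes. The authors deposited 1 peak list per library with a score per peak, which was used here only to rank peaks within a list. The lowest score was 50.01 in both 5hmC lists. Depth, control library and caller settings are not stated in the sources at hand. Capture favours regions dense in modified CpG.

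Overlaps, gaps and covered lengths were computed in Python 3.11.15 with numpy 2.4.6, pandas 2.3.3 and scipy 1.17.1. Figures used matplotlib 3.10.9. The code was tested on simulated data (4500 intervals, 0 wrong) and gave the numbers of bedtools 2.31.1 in 4 of 4 list pairs. The members, classes and lists were chosen with earlier results of these data known. Sites named in the text are the 5 best-scoring peaks of each class and the 5 windows with the greatest gain and the greatest loss. The runs of peaks, the broad peaks and the grouping by distance were chosen after values were seen. No annotation of mm9 was used here, so the planned gene lists were left out. The alternatives were a score of at least 100, equal numbers of best-scoring peaks, an overlap of 50%, the peak centre, windows of 1 Mb, autosomes only and joining of peaks within 1000 bp.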

Additional observations from a re-analysis of the deposited data

Results flagged for a closer look

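In 2 of the named windows 5hmC covered less and 5mC covered more at day 3 than in fibroblasts, and these are given here for that reason. More 5mC at day 3 was common, as it held in 91.8% of all windows of 100 kb in which 5mC differed. Whether both marks truly differ was not tested, and each value comes from 1 library. On chromosome 5 from 113800001 to 113900000, 5hmC covered 0.999 kb at day 3 and 14.5 kb in fibroblasts, while 5mC covered 14.7 kb at day 3 and 7.39 kb in fibroblasts, a difference of 7.31 kb. On chromosome 2 from 179200001 to 179300000, 5hmC covered 1.98 kb at day 3 and 14.0 kb in fibroblasts, while 5mC covered 16.9 kb at day 3 and 13.3 kb in fibroblasts, a difference of 3.60 kb.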

How the results depend on the processing

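Of 47 values recomputed for 11 results under 7 alternatives, 11 stayed inside the 95% counting interval of the value reported and 36 did not. The order of the peak classes was the same under each alternative run. Classes are given as day-3-only, day-3 with a counterpart and fibroblast-only. With a score of at least 100, 92.3% of day-3 and 70.8% of fibroblast peaks had no counterpart, the day-3 list was 3.84 times as long and covered 5.14 times the length, and 79.4% of differing windows had more at day 3. Fibroblast 5mC then lay under 29.9%, 55.5% and 27.2% of the classes and iPS 5hmC under 51.0%, 91.6% and 79.6%. For equal numbers, the day-3 list was cut to its 42301 best-scoring peaks and the fibroblast list was kept whole. Then 85.2% of day-3 and 84.8% of fibroblast peaks had no counterpart. Day 3 covered 1.81 times the length and had more in 50.7% of windows. Fibroblast 5mC lay under 32.6%, 53.2% and 23.4%, and iPS 5hmC under 54.1%, 86.3% and 60.0%. With 50% of the counted peak, 89.9% and 67.1% had no counterpart, fibroblast 5mC lay under 19.2%, 38.2% and 16.0%, and iPS 5hmC under 36.9%, 80.3% and 51.6%. By the peak centre, 89.2% and 66.7% had no counterpart. With peaks joined, 84.4% of day-3 peaks had none, and the ratios were 2.28 in number and 3.73 in length. On autosomes, iPS 5hmC lay under 43.5% of day-3-only peaks. In windows of 1 Mb, 81.1% had more at day 3. No paired analysis was possible because each group holds 1 library. Unknown depth limits each count and length, and windows were split nearly evenly once both lists had the same number of peaks.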

Other observations

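Of the 5 windows of 100 kb with at least 20 kb of fibroblast 5hmC, 3 also had at least 20 kb at day 3, on chromosomes 1, 11 and Y. On chromosome 11 from 3000001 to 3100000, 5hmC covered 71.9 kb at day 3 and 76.1 kb in fibroblasts, and 5mC covered 77.9 kb at day 3 and 76.2 kb in fibroblasts. On chromosome 9 from 3000001 to 3100000, 5hmC covered 16.9 kb at day 3 and 20.3 kb in fibroblasts. On chromosome Y from 2800001 to 2900000 it covered 42.6 kb at day 3 and 32.6 kb in fibroblasts. In iPS cells 5hmC covered 67.5 kb of the window on chromosome 11, 17.7 kb on chromosome 9 and 40.3 kb on chromosome Y. Enrichment of these windows over a control was not tested, since no control library is stated. Besides these, the set held the 2 windows on chromosomes 3 and 1 with the greatest losses. The widest day-3 peak, on chromosome 11 from 3075046 to 3100447, spanned 25402 bp, of which 25369 bp were covered in fibroblasts. The widest fibroblast peak, on chromosome 1 from 90121884 to 90151054, spanned 29171 bp and met 10 day-3 peaks that covered 17182 bp of it. Exactly the same start and end at day 3 and in fibroblasts occurred for 1 5hmC peak.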
